A study of Mus musculus with 8 samples.

Results

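The proneural and neuronal basic helix-loop-helix (bHLH) factors described here are 8 mouse genes, Neurog1, Neurog2, Neurod1, Neurod2, Neurod4, Neurod6, Nhlh1 and Nhlh2. They were read through every probe set whose platform annotation names 1 of them alone, which gave 14 of the 45037 probe sets other than controls. No probe set with several gene names included a member. Total RNA from mouse was profiled on 8 Affymetrix arrays, of which 4 are labelled Ctrl and 4 Exp. The labels give trigeminal ganglion (which holds the touch, pain and temperature neurons of the face) in one field, but brain and adrenal medulla in another, and no genotype, strain, treatment, age or promoter is stated for either group. Nothing states that arrays of a group came from separate animals, so p-values measure the spread between these arrays, which may be technical.

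Proneural bHLH proteins bind E-box DNA as dimers with the broadly expressed E proteins, and the Id proteins block them by taking up the E proteins. Neurog1 and Neurog2 act in dividing precursors, where they start the neuronal programme and raise Notch ligands, and Neurog1 is required for the neurons of the trigeminal ganglion. The Neurod genes act later, in differentiating neurons, and Nhlh1 and Nhlh2 (also called NSCL factors) are switched on as neurons leave the cell cycle. In bulk RNA fewer cells of a type and less RNA per cell cannot be told apart.

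The bHLH factors did not separate Exp from Ctrl, whereas the signals of several of them followed one order of arrays that ran across both groups. Of the 14 probe sets, 9, from 7 genes, passed a filter on low signals set at the 40th percentile of all probe sets, a signal of about 333. None of the 9 passed the 5% false discovery rate in limma (adjusted p = 0.999 for each), where 1 of the 27022 tested probe sets, or 0.0037%, did. Groups overlapped in all 14 member probe sets, and 2.34% of all tested probe sets had groups that did not overlap. Neurog1, Neurod1, Neurod4 and Nhlh1 had nearly the same order, with Ctrl 4 highest and Exp 2 or Ctrl 2 lowest in each gene's brightest probe set.

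The 250 bases before the annotated start of these 4 genes are shown because their signals followed each other, and because bHLH dimers bind the E-box, CANNTG. E-boxes are in capitals, the rest is in lower case, and each sequence runs 5′ to 3′ on the gene's strand as RefSeq gives it for GRCm38.p6. The windows are chr13:56252181-56252430 (Neurog1, minus strand), chr2:79456637-79456886 (Neurod1, minus strand), chr10:130280255-130280504 (Neurod4, minus strand, the first of its 2 listed starts) and chr1:172057597-172057846 (Nhlh1, minus strand).
Neurog1: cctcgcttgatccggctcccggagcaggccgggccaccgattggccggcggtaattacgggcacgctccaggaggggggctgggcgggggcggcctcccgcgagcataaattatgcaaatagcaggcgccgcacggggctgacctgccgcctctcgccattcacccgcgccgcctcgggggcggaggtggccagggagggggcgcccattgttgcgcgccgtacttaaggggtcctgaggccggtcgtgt
Neurod1: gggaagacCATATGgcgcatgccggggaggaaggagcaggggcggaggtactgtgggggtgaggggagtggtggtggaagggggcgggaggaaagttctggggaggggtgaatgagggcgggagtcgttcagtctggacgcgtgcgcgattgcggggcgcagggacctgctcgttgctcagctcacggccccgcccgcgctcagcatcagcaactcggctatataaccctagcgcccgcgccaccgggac
Neurod4: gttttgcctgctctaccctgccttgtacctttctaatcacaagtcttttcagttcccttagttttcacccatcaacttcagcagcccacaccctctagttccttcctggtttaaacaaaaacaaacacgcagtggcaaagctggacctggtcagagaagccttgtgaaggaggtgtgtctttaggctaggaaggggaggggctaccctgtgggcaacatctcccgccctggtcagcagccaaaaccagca
Nhlh1: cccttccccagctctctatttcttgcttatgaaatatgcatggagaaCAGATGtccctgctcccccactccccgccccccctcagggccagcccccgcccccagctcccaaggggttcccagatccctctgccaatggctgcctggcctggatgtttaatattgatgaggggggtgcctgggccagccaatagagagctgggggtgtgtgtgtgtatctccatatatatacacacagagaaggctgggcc

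An E-box stood in the Neurod1 window as CATATG, 242 bases before the start, and in the Nhlh1 window as CAGATG, 203 bases before the start. No CANNTG stood in these windows of Neurog1 or of either Neurod4 start. Neurod2 held 3 E-boxes in its window, Neurod6 and Nhlh2 held 2 each, and Neurog2 held 0. Over all 9 member windows 5 held at least 1 CANNTG, a pattern that reads the same on both strands, and so did 66.2% of the 32851 promoter windows of the same length. CAGATG or its reverse complement CATCTG stood in 3 member windows and in 14.4% of all windows, and CAGCTG in 0 member windows and in 13.0% of all. These are matches of letters and show no binding.

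Neurog1, which commits trigeminal precursors to a neuronal fate, had signals of 1351, 1022, 1572 and 3056 in Ctrl 1 to 4 and of 2454, 935, 1724 and 1140 in Exp 1 to 4 (probe set 1438551_at). Ctrl 4 and Exp 1 were high, Exp 2 and Ctrl 2 were low, and the groups overlapped. The mean log2(signal + 16) was 10.7 ± 0.66 in Ctrl and 10.5 ± 0.63 in Exp (SD, n = 4 each), a difference of -0.16 (SE 0.38, 95% confidence interval -1.02 to 0.70; limma, adjusted p = 0.999). The highest array stood 2.99 times above the lowest within Ctrl and 2.62 times within Exp, while the fold between the group means on the log scale was 0.896. Without Ctrl 4 the difference turned to 0.15, and without Exp 2 to 0.06. The gene's other probe set, 1450836_at, lay under the filter with signals of 60 to 305 in Ctrl and 73 to 296 in Exp. It differed by 0.27 (exact permutation p = 0.714), and its r with the brighter probe set over the 8 arrays was 0.21.

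Neurog2, which acts beside Neurog1 in sensory precursors, was read by 1 probe set, 1422839_at, and lay under the filter. Its signals were 226, 305, 170 and 374 in Ctrl 1 to 4 and 286, 483, 397 and 169 in Exp 1 to 4. After normalization 4 of the 8 arrays reached the filter's level of 8.45 (log2), Ctrl 2 only just with 8.46, and Exp held both the highest and the lowest array. The log2 difference was 0.19 (two-sided exact permutation p = 0.657; the smallest p that 4 arrays against 4 allow is 0.0286). Without Exp 2 it was -0.01. The deposited values carry no detection call, so whether these low signals are transcript or background is not known.

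Neurod1, a differentiation factor that follows the neurogenins, gave signals of 20319, 16679, 24672 and 26615 in Ctrl 1 to 4 and of 24343, 13907, 23353 and 16609 in Exp 1 to 4 (1426412_at). Ctrl 4 was again the highest array and Exp 2 the lowest. On the log2 scale the means were 14.4 ± 0.31 and 14.2 ± 0.38 (SD, n = 4 each), and the difference was -0.18 (SE 0.22, interval -0.67 to 0.31; limma, adjusted p = 0.999). The second probe set, 1426413_at, read 16600, 10644, 16151 and 17524 in Ctrl and 21712, 10884, 17169 and 13776 in Exp. It differed by 0.06 (SE 0.24), opposite in sign to the first, and both intervals span 0. Its difference was -0.01 with arrays centred on medians and -0.11 without Ctrl 2 or without Exp 1, while the r of the 2 probe sets over the 8 arrays was 0.87.

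Neurod2, a factor best known from central excitatory neurons, had the lowest unadjusted p of the members. Its brightest probe set, 1435411_at, read 1338, 962, 1141 and 1584 in Ctrl 1 to 4 and 1056, 955, 922 and 1081 in Exp 1 to 4. All Exp arrays lay under the Ctrl median, but Ctrl 2 lay among them, so the groups overlapped. The log2 mean was 10.3 ± 0.28 in Ctrl and 9.97 ± 0.08 in Exp (SD, n = 4 each), a difference of -0.33 (SE 0.14, interval -0.66 to -0.01). The difference did not pass the threshold (limma, unadjusted p = 0.0457, adjusted p = 0.999; exact permutation p = 0.0571), and in the fit without a filter its interval was -0.69 to 0.03 (limma, unadjusted p = 0.0658). Among all tested probe sets 1266, or 4.69%, had an unadjusted p below 0.05, and this was the 1 of the 9 members that did. No member did with no filter, without quantile normalization, with the trend and robust options, with array weights or with the Eif2s3y covariate, nor without any 1 of Ctrl 1, Ctrl 3, Ctrl 4, Exp 2, Exp 3 and Exp 4. Without Exp 1, 1 member had an unadjusted p below 0.05. Neurod6 then stood farther from 0 for its SE (-0.38, SE 0.12) than Neurod2 1435411_at did (-0.34, SE 0.16). The other tested Neurod2 probe set, 1418995_at, differed by -0.37 (SE 0.31), with signals of 303 to 720 in Ctrl and 249 to 579 in Exp. The third, 1444362_at, lay under the filter on all 8 arrays, with signals of 8 to 95, and differed by -0.49 (exact permutation p = 0.371). All 3 probe sets were thus lower on average in Exp. None passed the 5% false discovery rate or had an exact permutation p below 0.05.

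Neurod4, a factor of neuronal differentiation also known as Math3, was tested through 1436694_s_at, a probe set whose suffix marks that it can read several transcripts. Its signals were 1254, 711, 1325 and 2136 in Ctrl 1 to 4 and 1891, 947, 1630 and 887 in Exp 1 to 4. Ctrl 4 was highest and Ctrl 2 lowest, a 3.0-fold range that lies within Ctrl. The difference was -0.03 (SE 0.35, interval -0.83 to 0.77; limma, adjusted p = 0.999). It was 0.22 without Ctrl 4, 0.11 without Exp 2, 0.15 without Exp 4 and 0.01 without quantile normalization. The other probe sets, 1418054_at and 1418055_at, lay under the filter and disagreed. The first followed 1436694_s_at over the 8 arrays (r = 0.94) and differed by -0.31 (exact permutation p = 0.543). The second differed by 0.97 (exact permutation p = 0.343), with Ctrl signals of 30, 54, 194 and 331 against 202 to 288 in Exp, and its 2 lowest arrays were Ctrl 1 and Ctrl 2.

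Neurod6, a factor best known from forebrain projection neurons, read 2999, 3261, 3330 and 3504 in Ctrl 1 to 4 and 4617, 2488, 2713 and 2259 in Exp 1 to 4 (1418047_at). The Ctrl arrays lay close together, while Exp 1 lay above all of them and the other Exp arrays below all of them. The difference was -0.16 (SE 0.21, interval -0.63 to 0.31), from 11.7 ± 0.11 to 11.5 ± 0.45 (SD, n = 4 each; limma, adjusted p = 0.999). Without Exp 1 the difference was -0.38 (SE 0.12), with an adjusted p of 0.998 in limma. Whether the spread itself differed between groups was not tested. Of 12 forebrain neuron markers on the array 8 lay under the filter, namely Tbr1, Emx1, Emx2, Slc17a7, Gad1, Gad2, Fezf2 and Eomes. The other 4 passed it, with signals over the 8 arrays of 16743 to 22340 for Cux2, 579 to 1375 for Dlx1, 256 to 666 for Dlx2 and 377 to 721 for Lhx2.

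Nhlh1 and Nhlh2 mark newly formed neurons, and each was read by 1 probe set. Nhlh1 read 3568, 3134, 4046 and 4313 in Ctrl 1 to 4 and 4202, 3153, 3576 and 3230 in Exp 1 to 4 (1419533_at). It varied least, with a highest array 1.38 times the lowest, and it differed by -0.07 (SE 0.14, interval -0.37 to 0.24; limma, adjusted p = 0.999). Without Ctrl 4 that difference was 0.00. Nhlh2 read 4870, 6086, 5225 and 6657 in Ctrl 1 to 4 and 7582, 4518, 5312 and 3065 in Exp 1 to 4 (1436888_at). Both its highest and its lowest array were in Exp, and the difference was -0.20 (SE 0.25, interval -0.76 to 0.35; limma, adjusted p = 0.999). Without Exp 4 it was 0.01.

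**Figure D1:**
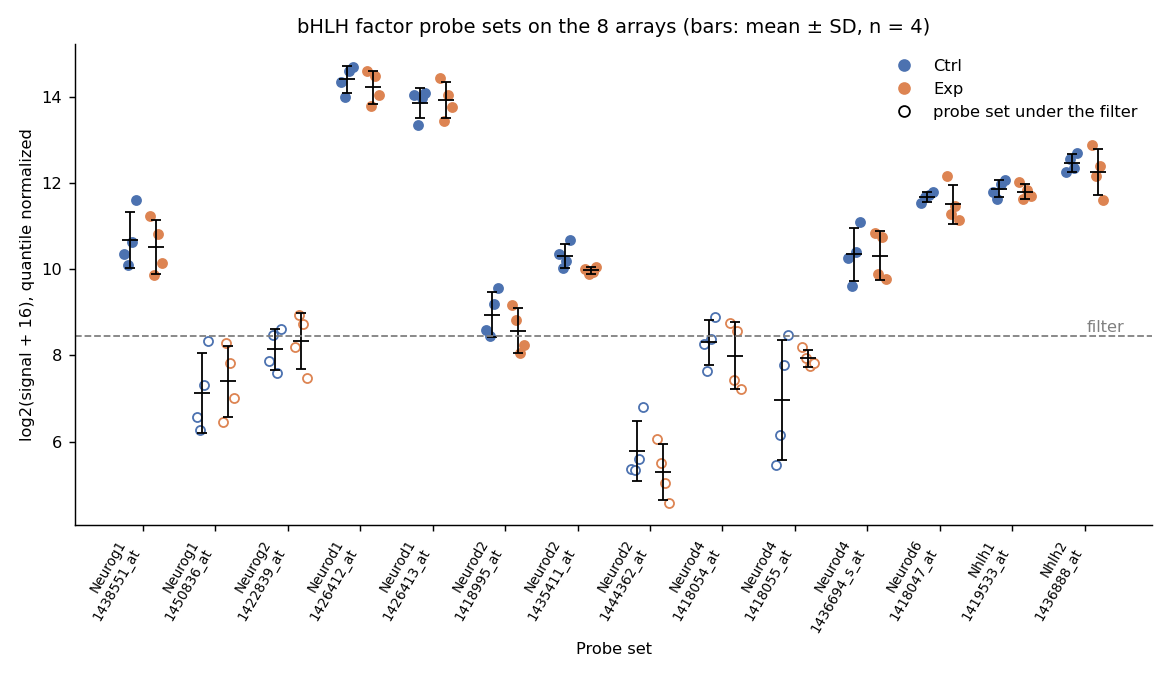
Quantile-normalized log2(signal + 16) of the 14 probe sets, with 1 point per array, Ctrl in blue, Exp in orange, and bars for the mean ± SD of 4 arrays. Open points mark the 5 probe sets under the filter (dashed line). Within every probe set the points of both groups overlap, and heights of different probe sets are not comparable.

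Set side by side, 8 of the 9 tested probe sets had a lower mean in Exp and 1 a higher mean, with a median difference of -0.16. Over all tested probe sets 51.6% were lower, and the median was -0.01. The members' count rests on single arrays, since it came to 5 of 9 without Ctrl 4, and their signals moved together, so the 9 signs are not independent. For 7 of the 9 the 95% confidence interval excluded both a doubling and a halving. The exceptions were Neurog1 (1438551_at, down to -1.02) and Neurod2 (1418995_at, down to -1.08).

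**Figure D2:**
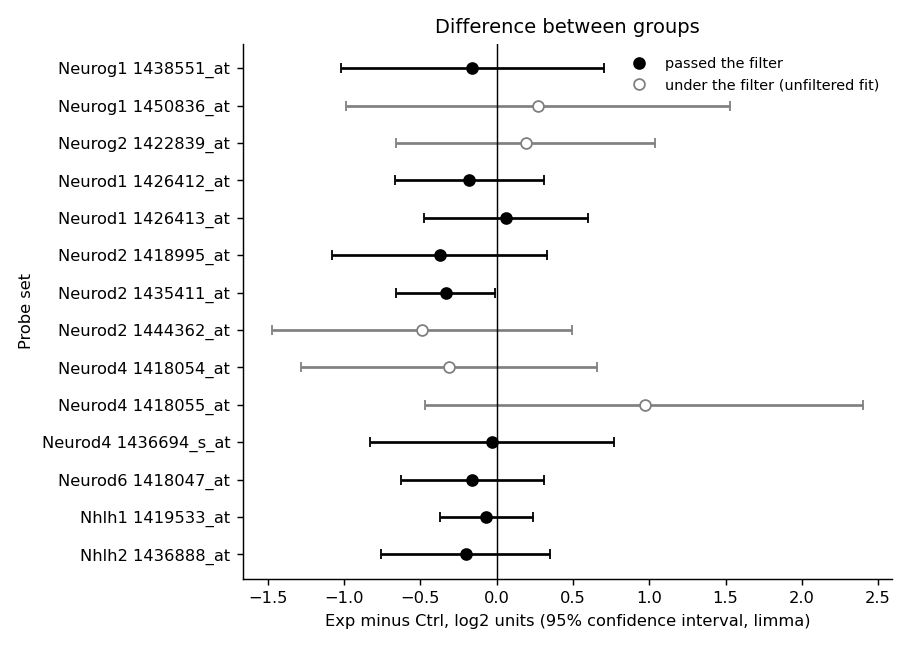
Log2 difference, Exp minus Ctrl, of the 14 probe sets on the horizontal axis with limma's 95% confidence interval. Filled points passed the filter, and open points come from a fit without a filter. Only the interval of Neurod2 1435411_at (-0.66 to -0.01) leaves out 0, before any adjustment, and in the unfiltered fit that gives the open points it is -0.69 to 0.03.

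Among the 7 genes' brightest tested probe sets, Ctrl 4 was the highest array in 5 and Exp 1 in 2, whereas over all tested probe sets these arrays were highest in 14.0% and 11.4%. All 7 lay above their own 8-array mean in Ctrl 4, and all 7 below it in Exp 2 and in Exp 4. The median deviation was 0.37 log2 units in Ctrl 4 and 0.52 in Exp 1, against -0.32 in Exp 2, -0.44 in Exp 4 and -0.21 in Ctrl 2. Each group thus held arrays at both ends.

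**Figure D3:**
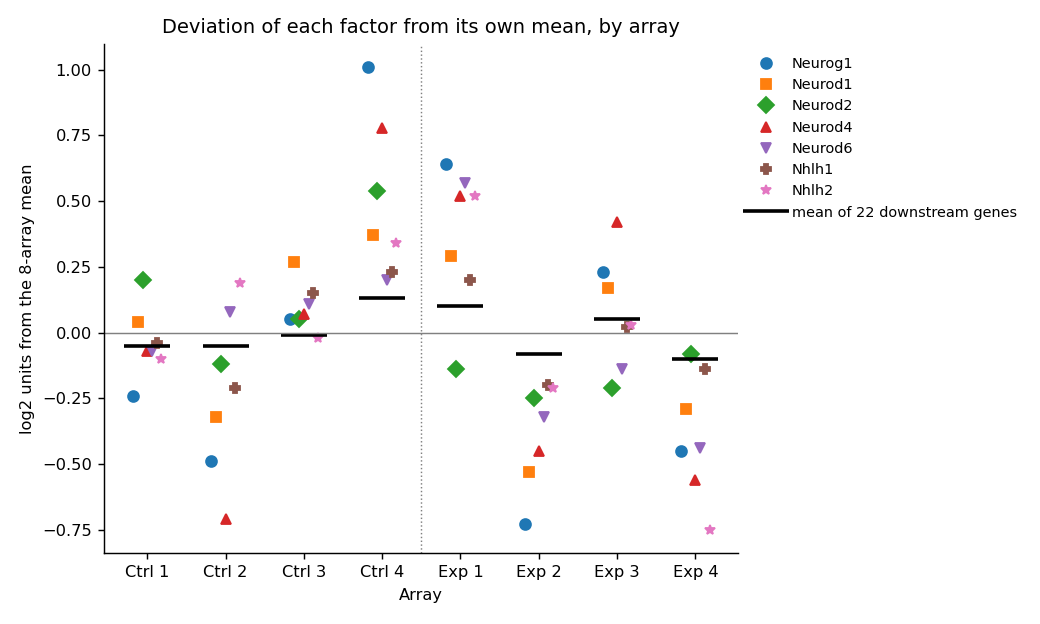
Deviation of 7 factors (coloured symbols, brightest tested probe set) from their own 8-array mean, in log2 units, by array, with the mean of 22 genes downstream of proneural factors as black bars. The symbols lie above 0 in Ctrl 4 and below 0 in Exp 2 and Exp 4.

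The likeness of the factors over the 8 arrays is given as a description without a test, since the arrays share a normalization and were few. Neurod1 and Nhlh1 had a Pearson's r of 0.95 (Spearman's rho 0.98), and Neurog1 had 0.94 with Neurod4 (rho 0.93), 0.93 with Nhlh1 (rho 0.95) and 0.90 with Neurod1 (rho 0.98). Without the 2 arrays farthest from the median of the first-named gene, these values were 0.94, 0.89, 0.86 and 0.95. Neurod6 and Nhlh2 were most like each other (r = 0.91, rho 0.88, and 0.82 without Exp 1 and Exp 4). For Neurod2 the brightest probe set, 1435411_at, had the lowest values, with r from 0.24 with Nhlh2 to 0.58 with Neurog1, whereas its other tested probe set, 1418995_at, had 0.51 with Neurod1 to 0.70 with Nhlh1. Over all 8 arrays the 21 pairs of brightest probe sets had an r above 0 and 18 an r above 0.5, with a median of 0.68, or 0.67 after each group's mean was taken off. Some pairs rested on the outermost arrays: without Ctrl 4 and Exp 1 the r of Neurog1 with Nhlh2 went from 0.68 to 0.34, that of Nhlh1 with Nhlh2 from 0.61 to 0.22 and that of Neurog1 with Neurod2 from 0.58 to 0.24. Without Ctrl 1 and Ctrl 4 the r of Neurod2 with Neurod4 went from 0.49 to 0.00 and that of Neurod2 with Nhlh2 from 0.24 to -0.09, so not every pair stayed above 0. Other pairs rose. Without Ctrl 2 and Exp 2 the r of Neurod1 went from 0.60 to 0.92 with Nhlh2 and from 0.69 to 0.82 with Neurod6. Without Ctrl 2 and Ctrl 4 that of Neurod4 went from 0.63 to 0.88 with Nhlh2 and from 0.61 to 0.81 with Neurod6. The 2 arrays left out differ with the first-named gene, so falls and rises also reflect that choice.

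**Figure D4:**
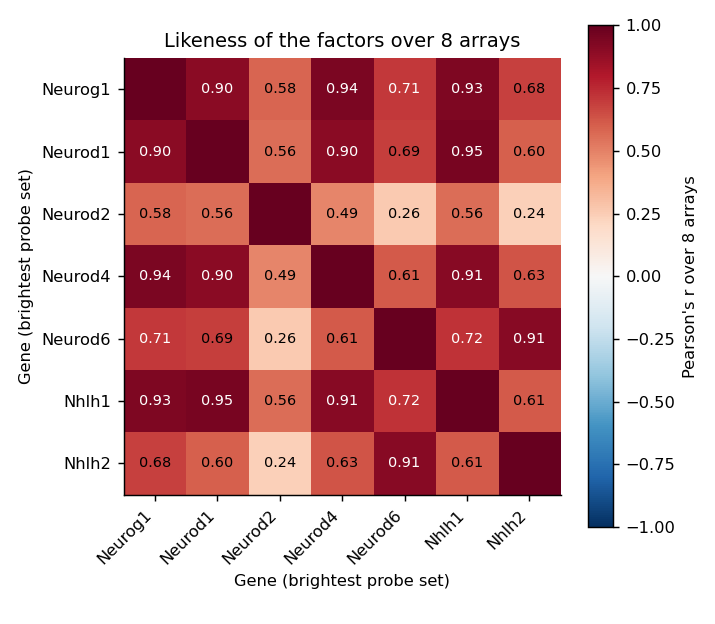
Pearson's r over the 8 arrays between the brightest tested probe sets of 7 factors, printed in each cell and coloured from blue (-1) to red (1). Neurog1, Neurod1, Neurod4 and Nhlh1 have values of 0.90 or more with each other, and the row of Neurod2 (1435411_at) is the palest.

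Several factors varied more over the arrays than most genes of like signal did. The SD over 8 arrays was 0.60 log2 units for Neurog1, higher than in 98.2% of the 2103 genes whose mean lay within 0.5 log2 units of its own. For Neurod1 (SD 0.34) the share was 98.1% of 1057 genes, for Neurod4 (0.55) 97.2%, for Nhlh2 (0.38) 94.8% and for Neurod6 (0.32) 88.5%. Nhlh1 (0.18, 52.3%) and Neurod2 (0.26, 57.4%) lay near the middle. High variation and a shared order thus did not always go together, since Nhlh1 followed Neurod1 closely with a small range.

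Among 6099 genes whose SD over the arrays was at least 0.2, each by its brightest probe set, 2 were sought per factor with the highest r over the 8 arrays. Of these, Gadd45g, a growth arrest gene downstream of neurogenins, was most like Neurog1 (r = 0.964), and St18, a zinc finger gene of the Myt family, was most like Neurod1 (r = 0.949). Next came Mir1949 for Neurog1 (0.960) and Lrfn3, a synaptic adhesion gene, for Neurod1 (0.948). Ssb and Neurog1 itself were most like Neurod4 (0.944 each), and Neurod1 and Adpgk were most like Nhlh1 (0.954 and 0.938). Nhlh1, with an SD of 0.18, was not among the genes searched. The r of Neurod1 with Nhlh1 (0.954) was higher than that with St18. Nhlh2 was nearest to Traf5 (0.973) and Klhdc8b (0.964), Neurod6 to Hemgn (0.967), an erythroid gene, and Sall4 (0.951), and Neurod2 to Tcp11 (0.932) and Adam15 (0.926). With 8 arrays and 6099 genes, values of this height are found for each factor, and 5 to 19 genes per factor exceeded 0.9.

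The E proteins, with which all these factors dimerise, were close to equal in both groups. Tcf3 (E12/E47) differed by -0.03 (SE 0.18), Tcf4 by -0.03 (SE 0.16) and Tcf12 by -0.02 (SE 0.11), so 3 of 3 were lower and 0 passed limma's test. Of the 4 Id inhibitors, 2 were higher and 2 lower, and 0 passed. Id4 differed by 0.18 (SE 0.10), Id2 by 0.01 (SE 0.13), Id1 by -0.24 (SE 0.16) and Id3 by -0.27 (SE 0.15). Among the Hes, Hey and related repressors, some of which Notch signalling raises against proneural genes, 10 were on the array and 7 passed the filter. Of these 4 were higher and 3 lower, with a median of 0.01, and 0 passed the test. Heyl differed by -0.24 (SE 0.13), Hes7 by 0.23 (SE 0.15) and Hey2 by -0.17 (SE 0.15).

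Cofactors and other bHLH genes did not pass either. Of 9 LIM-only partners and coactivators on the array 7 passed the filter, with 6 lower, 1 higher, a median of -0.06 and 0 called. Lmo2, a LIM-only protein that bridges bHLH complexes, differed by -0.37 (SE 0.16), Lmo1 by -0.11 (SE 0.13) and Ldb2 by 0.11 (SE 0.12). Among 15 other neural bHLH genes on the array, only Hand1 (-0.33, SE 0.15) and Tal1 (-0.08, SE 0.12) passed the filter. The 22 genes downstream of proneural factors all passed it, with 9 higher, 13 lower, a median of -0.02 and 0 called. Sox11, a factor of immature neurons, differed by 0.21 (SE 0.14), Cbfa2t3, a corepressor, by 0.17 (SE 0.13), and St18 by -0.21 (SE 0.22). Over all 12763 genes by their brightest probe set 54.8% were lower, with a median of -0.01.

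The mean of the downstream genes followed the factors from array to array, but only part of the list did so gene by gene. Neither list had a gene called between the groups. Of the 22, 11 had an r above 0.5 with the median deviation of the 7 factors over the 8 arrays, none had one below -0.5, and the median r was 0.50. Over the 12756 genes other than members 12.5% had an r above 0.5 and 12.2% one below -0.5, with a median of 0.01. An r above 0.5 was also found for 4 of 7 Hes, Hey and related genes, 2 of 4 Id genes and 2 of 3 E proteins. It was found for 1 of 7 LIM-only partners and coactivators and 0 of 2 other neural bHLH genes. The share among the downstream genes was thus not particular to them. The mean of the 22 had an r of 0.95 (rho 0.95, and 0.93 without Exp 1 and Exp 4), with a range from -0.10 in Exp 4 to 0.13 in Ctrl 4. Highest were Ebf2 (0.92), Insm1 (0.90) and Myt1 (0.88), named after their values were seen, and lowest was Scrt1 (-0.48). The Notch ligands Dll1 and Dll3 had 0.28 and -0.35. Insm1, a zinc finger factor of newborn neurons, read 7903, 7765, 7755 and 9926 in Ctrl 1 to 4 and 11811, 7469, 7364 and 6662 in Exp 1 to 4. Exp 1 and Ctrl 4 were its highest arrays, as they were for the median deviation of the factors, though not for every factor.

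Other measures moved along with the factors' order of arrays, and their part in it was not tested. The mean of 9 neural progenitor and cell division genes had an r of 0.83 with the factors' median (rho 0.86, and 0.85 without Exp 1 and Exp 4), with values from -0.17 in Ctrl 2 to 0.16 in Ctrl 4, and 2 of the 9, Nes and Cdk1, had an r above 0.5. The summed signal of that list was 61952 to 71287 in Ctrl and 64650 to 73878 in Exp. The mean of 7 Hes, Hey and related genes had an r of 0.85 (rho 0.67), that of the 4 Id genes 0.68 (rho 0.62) and that of the 3 E proteins 0.65 (rho 0.62). Without Exp 1 and Exp 4 these values were 0.66, 0.68 and 0.47. The actin control's ratio of 3' to 5' signal, a measure of RNA integrity and labelling, had an r of -0.68 (rho -0.66, and -0.64 without Exp 1 and Exp 4). The ratio was highest in Exp 2 (25.5) and Exp 4 (24.5), where the factors were low. It was lowest in Ctrl 4 (19.8), where they were high, but it was 20.3 in both Ctrl 2 and Ctrl 3. On every array the 3' signal was thus at least 19.8 times the 5' signal. The ratio also leaned by group, since Exp 2, Exp 3 and Exp 4 lay above every Ctrl array. Exp 1 (20.9) lay among the Ctrl arrays. Whether this bears on the low signals or on the differences between groups was not tested.

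Markers of the labelled tissue and of other cells gave the following. Of 15 trigeminal sensory neuron markers on the array all 15 passed the filter, among them Pou4f1, Isl1 and Prph, and 8 were higher and 7 lower in Exp with a median of 0.00. Their differences ran from -0.69 to 0.08. The lowest was Uchl1 (SE 0.19, limma, unadjusted p = 0.00615, adjusted p = 0.999). Its groups did not overlap, which held for 2.34% of all tested probe sets. The mean of the 15 markers had an r of -0.39 with the factors' median (rho -0.31, and 0.06 without Exp 1 and Exp 4). The summed signal of these markers was 466150 to 489862 in Ctrl and 455113 to 531556 in Exp. Of 8 pituitary markers 7 lay under the filter, as did 4 of 5 retina markers, and Neurod1 and Neurod4 are also known from those tissues. The fifth retina marker, Crx, a photoreceptor factor, had signals of 223 to 540, on both sides of the filter's level. It had an r of 0.79 with the factors' median (rho 0.76, and 0.60 without Exp 1 and Exp 4). Pomc, the pituitary marker that passed, had signals of 380 to 812 and an r of 0.01 (rho -0.05, and 0.57 without Exp 1 and Exp 4). Of 9 chromaffin and sympathetic markers Th (4044 to 6440), Pnmt (821 to 1423), Chga (6089 to 7273), Chgb (19703 to 22803), Gata2 (1259 to 3398) and Slc18a1 (305 to 568) passed the filter, while Dbh, Phox2a and Gata3 lay under it. The mean of the 6 had an r of -0.64 with the factors' median (rho -0.40, and -0.22 without Exp 1 and Exp 4). Schwann and satellite glia markers were lower in 8 of 9 genes (median -0.26) and skeletal muscle markers higher in 7 of 7 (median 0.70), with 0 called in either. Their means had an r of -0.11 (rho -0.05) and 0.04 (rho 0.19) with the factors' median, and of 0.18 and -0.20 without Exp 1 and Exp 4. The summed muscle signal ran from 5242 to 8915 in Ctrl and from 3622 to 56011 in Exp.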

How the data were processed

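The deposited values are array intensity values on a linear scale, 1 per probe set and array, and the authors' steps before deposit are not stated in the sources at hand. Trimmed of 2% of the values at either end, every array had a mean of 2500, a property of global scaling, and array medians lay between 478.0 and 552.6. Fold changes are therefore relative to the array as a whole. Groups and numbers came from the sample titles.

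Signals were taken as log2(signal + 16) and quantile normalized, since the arrays' medians differed by up to 0.203 log2 units. The 64 control probe sets and those with a mean under the 40th percentile (8.45 on the log2 scale) were left out. Exp was compared with Ctrl on the remaining 27022 in limma 3.58.1 (R 4.3.3; lmFit, eBayes), with two-sided p-values adjusted by Benjamini-Hochberg over them all. Members under the filter were given by their values and an exact two-sided permutation test over the 70 orders of the arrays. The pipeline was tested on simulated data. A gene's probe sets were reported separately, and listed genes were read by the probe set with the highest mean.

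The platform's annotation gave gene names, updated by Entrez identifier through RefSeq (GRCm38.p6), where 34741 of 34945 probe sets with 1 name matched; 932 had several names and 9160 none. All 8 members were found in RefSeq's promoter table. The members and lists were chosen with earlier results of these data known. Genes to be named were all members, the genes of lists of 4 or fewer, the 3 with the smallest p in longer pathway lists, the 2 most like each factor and any gene called; the 1 called, 1300017J02Rik, is no member (log2 difference 2.43, SE 0.21, limma, adjusted p = 0.031). Alternatives were other pseudocounts (1 and 64), no filter or one at the 60th percentile, no quantile normalization, median centring, the replicate block, trend and robust options, array weights, a covariate for sex (the signal of Eif2s3y), and leaving out each array. Figures were drawn with matplotlib 3.10.9.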

Additional observations from a re-analysis of the deposited data

Results flagged for a closer look

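In each member probe set and group of 4 arrays, a value was marked when its gap to the nearest other array took up more of that group's range than Dixon's 95% critical share. Of 28 such groups 2 were marked, and chance marks about 1 in 20, or 1.4 here. Ctrl 2 lay below the other Ctrl arrays for the Neurod1 probe set 1426413_at, at 13.34 against 13.98 to 14.09 (log2). Ctrl 4 lay above them for the Neurod2 probe set 1444362_at, at 6.81 against 5.35 to 5.60, signals that lie under the filter.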

How the results depend on the processing

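No member was called under any of the 18 alternatives, where the lowest adjusted p of a member was 0.724 (limma). Among the 6 alternatives that keep all arrays and can move a difference (pseudocounts, scaling, array weights and the covariate), 72 of 74 member values kept their sign; the other alternatives with all arrays leave the difference as it is. The exceptions were Neurod1 1426413_at, at -0.01 with median centring, and Neurod4 1436694_s_at, at 0.01 without quantile normalization; the cause was not tested. Without 1 array at a time, Neurog1 ran from -0.40 to 0.15 (1438551_at) and from -0.03 to 0.67 (1450836_at), Neurog2 from -0.01 to 0.48, Neurod1 1426413_at from -0.11 to 0.22, Neurod4 1436694_s_at from -0.27 to 0.22, Nhlh1 from -0.15 to 0.00 and Nhlh2 from -0.41 to 0.01. The others kept their sign but moved, with Neurod1 1426412_at at -0.32 to -0.03, Neurod6 at -0.38 to -0.04, Neurod2 at -0.43 to -0.21 (1435411_at), -0.57 to -0.17 (1418995_at) and -0.75 to -0.15 (1444362_at), and Neurod4 at -0.56 to -0.05 (1418054_at) and 0.47 to 1.47 (1418055_at). The number of the 9 tested probe sets with a lower mean in Exp ran from 5 to 9. Over all probe sets the count of calls was 0 with no filter, with the filter at the 60th percentile, with the Eif2s3y covariate and with the replicate block, and 0 to 1 without 1 array. Arrays that share a number had correlations of -0.12 to 0.05 in their deviations from the group means. These values show no shared deviation, but they cannot tell whether the design paired the arrays. With the replicate block 0 members were called. The count of arrays, 4 per group, and the lack of detection calls limit what can be said of the low signals of Neurog2 and of 4 further probe sets.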

Other observations

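Among other neural bHLH genes, 13 of the 15 on the array lay under the filter, including Atoh1, Atoh7, Ptf1a, Neurog3 and Olig2, factors of other neural lineages. Chosen after its values were seen, Olig1, an oligodendrocyte lineage factor, had mean signals of 108 in Ctrl and 317 in Exp, with a range of 35 to 393 over the 8 arrays and groups that overlapped. The difference of 1.41 log2 units lies in signals mostly under the filter's level and was not tested.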
